A study of Mus musculus with 16 samples.

Results

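Interferon-stimulated genes are the genes that cells switch on when they meet an interferon, and 37 of them (the members) are described here out of 34779 genes on the array. The members are a list of well-known interferon-stimulated genes together with Ifnb1, which encodes interferon beta itself. They were found by their symbol among the 55681 array probes that are not controls, and they carry 49 probes, with more than 1 probe for 12 members. Each of the 16 arrays held RNA from RAW 264.7 cells, a mouse macrophage-like cell line. The study asked what cordycepin, an adenosine analogue known to interfere with polyadenylation, does to gene expression in these cells with and without lipopolysaccharide (LPS), a bacterial cell wall component that inflames macrophages.

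All cells had been kept in low-serum medium and all received the vehicle DMSO or cordycepin dissolved in it. The DMSO group (4 arrays) received vehicle alone for 120 min, and the cordycepin group (4 arrays) received 20 µM cordycepin for 120 min. The LPS+DMSO group (4 arrays) received vehicle for 60 min and then 1 µg/ml LPS for a further 60 min. The LPS+cordycepin group (4 arrays) had 20 µM cordycepin for 60 min before the same LPS treatment. The 4 replicates were collected on 4 days, and the wells of a replicate number came from 1 plate, so replicate number and day are the same here. Being 1 cell line, the replicates are separate cultures and not separate animals.

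Macrophages sense LPS through Tlr4, and the adaptor Ticam1 leads from there to the kinases and to Irf3, which together with NF-kappa B switches on Ifnb1. Secreted interferon beta then acts on the receptor of Ifnar1 and Ifnar2, and a complex that holds Stat2 and Irf9 binds interferon-stimulated response elements in front of the antiviral genes. Some members are also switched on by Irf3 directly, without interferon. Within a short LPS treatment the direct targets are known to come first and the bulk of the antiviral genes later.

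Levels are given as log2 of the intensity after scaling each array to a common 75th percentile, with the brightest probe for each gene. A gene was called when limma gave an adjusted p under 0.05 over all 15875 genes tested and a change of at least 2-fold. Of the 37 members, 36 were tested. Mx1, a dynamin-like antiviral GTPase, was not well above background on any of the 16 arrays. As the samples are bulk RNA, more RNA per cell and more cells that carry it cannot be told apart.

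The macrophage label was borne out by Cd68, Adgre1, Csf1r, Itgam, Cd14, Lyz2, Fcgr1 and Spi1, which were well above background on all 16 arrays, and by Mrc1 on 11. The B cell marker Ms4a1 and the natural killer cell markers Ncr1 and Klrb1c were well above background on none, whereas Cd79a was so on 12, Cd3e and Cd4 on 16, and Siglech, a marker of plasmacytoid dendritic cells, on 16 (between 10.03 and 16.59). Replicates 1 and 2 of every condition lay on 1 slide and replicates 3 and 4 on another, and between 21999 and 30362 of 59305 spots were well above background per array. DMSO replicate 2 stood apart in the interferon genes, so the calls and medians of the members against DMSO are given with and without it.

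Upstream sequences show which members carry the letters that the factors above are known to bind. A core of the interferon-stimulated response element (GAAA, any 2 bases, GAAA) and a core of kappa B sites (GGGA, any 2 bases, TTCC) were searched on both strands in RefSeq windows (GRCm38.p6) of 250 bases before to 50 bases after each start site. Of the members, 29 had a window. The response element letters occurred in 14 of these 29 (48.3%), against 1079 of 27025 genes (3.99%). The kappa B letters occurred in 4 of the 29 (13.8%), namely Ifnb1, Ifit2, Isg20 and Gbp2, against 441 of 27025 genes (1.63%). A match says only that the letters are present, and a window without a match may still hold a site spelled otherwise. Matches of the 2 sets of letters did not overlap each other in any member, but neighbouring matches of the response element letters share bases in Isg15, Gbp3, Irgm1, Bst2 and Trim21. Oasl1 and Cmpk2 had neither set of letters in their window, and those of Ifih1 lie after the start site. Mx1, Mx2, Oas2, Usp18, Dhx58, Iigp1, Zbp1 and Parp14 were not in the table of windows.

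The stretches that follow belong to the called members with a match before the start site, and to Ifit3 and Irgm1, which have the letters but were not called in any comparison with the 16 arrays. Each is written 5′ to 3′ on the strand of the gene, and capitals mark the matched letters on either strand. The stretches are Ifnb1 at chr4:88522881-88522930 (minus strand), Ifit1 at chr19:34640765-34640833 (plus), Isg15 at chr4:156200855-156200916 (minus), Rsad2 at chr12:26456543-26456592 (minus) and Gbp2 at chr3:142620584-142620633 (plus). The others are Gbp3 at chr3:142559979-142560034 (plus), Stat2 at chr10:128270256-128270305 (plus), Isg20 at chr7:78913636-78913685 (plus), Ifit3 at chr19:34583353-34583436 (plus) and Irgm1 at chr11:48871421-48871470 (minus).
Ifnb1: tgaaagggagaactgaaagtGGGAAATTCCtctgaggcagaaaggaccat
Isg20: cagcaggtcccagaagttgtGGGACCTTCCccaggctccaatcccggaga
Ifit1: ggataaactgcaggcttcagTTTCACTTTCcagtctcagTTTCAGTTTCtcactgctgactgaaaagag
Isg15: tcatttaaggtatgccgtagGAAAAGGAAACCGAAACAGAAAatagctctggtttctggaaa
Rsad2: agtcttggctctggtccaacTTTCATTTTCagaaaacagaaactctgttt
Gbp2: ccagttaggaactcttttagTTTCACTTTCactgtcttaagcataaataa
Gbp3: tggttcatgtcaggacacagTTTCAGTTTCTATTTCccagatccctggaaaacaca
Stat2: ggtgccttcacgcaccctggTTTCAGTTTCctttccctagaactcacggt
Ifit3: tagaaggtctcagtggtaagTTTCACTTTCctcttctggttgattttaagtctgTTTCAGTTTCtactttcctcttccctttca
Irgm1: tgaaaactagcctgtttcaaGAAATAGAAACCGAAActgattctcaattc
Ifnb1 and Isg20 hold the kappa B letters and not those of the response element in their windows, whereas Ifit1, Isg15, Rsad2, Gbp3, Stat2, Ifit3 and Irgm1 hold the response element letters alone.

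LPS raised a small set of the members within 60 min, and most of the others were not called. In LPS+DMSO against DMSO 7 of 36 members rose, namely Ifnb1, Ifit1, Isg15, Rsad2, Oasl1, Ifih1 and Gbp2, against 2.09% of all genes tested. Stat2 alone fell, against 2.49% of all genes. Without DMSO replicate 2 the same 7 rose and Gbp3 joined them, with Stat2 again the one that fell (2.19% and 2.43% of all genes). The median change over the 36 members was -0.06 on the log2 scale with all arrays and 0.22 without that array, beside -0.04 and -0.05 over all genes.

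The ligand gene Ifnb1, whose probe lies at chr4:88168023-88168082 of mm9, showed the largest change of any member. Ifnb1 was 4.85, 6.40, 2.37 and 2.40 on DMSO replicates 1 to 4, 3.69, 3.90, 3.99 and 2.88 with cordycepin, 11.90, 11.54, 11.61 and 11.66 with LPS+DMSO, and 10.43, 10.45, 10.32 and 10.32 with LPS+cordycepin. The groups without LPS and those with it were far apart, and the Ifnb1 probe was clearly brighter than background on 1 DMSO array, on none with cordycepin alone and on all 8 with LPS. As most DMSO arrays were not well above background, the rise with LPS is a limit, taken here and for Gbp2 against the lowest signal well above background on each array or the measured value if higher. An adjusted p beside such a limit is that of the measured change. Ifnb1 rose at least 79.3-fold (n = 4 per group, limma adjusted p = 6.3e-07), and at least 100.4-fold without DMSO replicate 2 (adjusted p = 1.4e-08). Errors after ± are SEs of limma on the log2 scale unless named as SD.

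Among the antiviral effectors, Rsad2 (viperin, which makes a chain-terminating nucleotide) and Ifit1 (which binds foreign RNA ends) rose. Rsad2 was 10.01, 11.66, 8.02 and 7.82 on the DMSO arrays, 8.71, 8.01, 7.65 and 7.53 with cordycepin, 12.82, 12.17, 12 and 12.31 with LPS+DMSO, and 10.29, 9.75, 9.38 and 9.72 with LPS+cordycepin. Every LPS+DMSO array was above every other array, and DMSO replicate 2 came closest to them. Rsad2 rose by 2.95 ± 0.62 with LPS (limma adjusted p = 0.0038), or 3.71 ± 0.45 without DMSO replicate 2 (adjusted p = 4.3e-05). Ifit1 was 8.52, 10.04, 7 and 6.93 in DMSO, 7.62, 7.03, 6.91 and 6.88 with cordycepin, 9.98, 9.70, 9.58 and 10.10 with LPS+DMSO, and 8.79, 8.69, 8.30 and 8.30 with LPS+cordycepin. DMSO replicate 2 lay within the LPS+DMSO range, and the other DMSO arrays lay below it. Ifit1 rose by 1.72 ± 0.50 (limma adjusted p = 0.028), or by 2.36 ± 0.32 without DMSO replicate 2 (adjusted p = 0.00014), and 13 of 38 alternative settings lost the call. Its relatives Ifit2 and Ifit3 were not called.

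Isg15, a ubiquitin-like protein that is attached to other proteins, likewise rose. Its level was 12.97, 14.14, 11.01 and 10.90 in DMSO, 12.72, 11.97, 11.16 and 11.10 with cordycepin, 15.45, 14.97, 14.98 and 14.83 with LPS+DMSO, and 14.54, 14.46, 13.98 and 13.47 with LPS+cordycepin. The LPS+DMSO arrays did not overlap any other group. Isg15 rose by 2.80 ± 0.59 with LPS (limma adjusted p = 0.0036), or 3.43 ± 0.48 without DMSO replicate 2 (adjusted p = 0.00018), and a second probe gave 3.03.

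Oasl1, an oligoadenylate synthetase relative known to restrain Irf7 translation, was 13.09, 13.93, 12.05 and 11.77 in DMSO and 13.10, 12.66, 12.05 and 11.86 with cordycepin. It reached 15.81, 15.41, 15.13 and 15.41 in LPS+DMSO and 14.53, 14.45, 14.03 and 13.92 in LPS+cordycepin, so that the LPS+DMSO arrays were again above all others. Oasl1 rose by 2.73 ± 0.39 (limma adjusted p = 0.00014), or 3.14 ± 0.33 without DMSO replicate 2 (adjusted p = 1.2e-05). Oas2, Oas3 and Oasl2 were not called. Leaving out DMSO replicate 2 moved Oas3 from -0.17 to 0.21, Oasl2 from -0.45 to 0.25 and Oas2 from -0.49 to -0.12.

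Of the cytosolic RNA sensors, Ifih1 (MDA5) rose while Ddx58 (RIG-I) and Dhx58 (LGP2) were not called. Ifih1 was 9.92, 10.63, 9.01 and 8.81 in DMSO, 9.78, 9.24, 9.02 and 8.83 with cordycepin, 11.03, 10.92, 10.89 and 11.35 with LPS+DMSO, and 9.80, 9.78, 8.98 and 9.28 with LPS+cordycepin. All LPS+DMSO arrays exceeded all the others, and the LPS+cordycepin arrays lay within the range of the arrays without LPS. Ifih1 rose by 1.46 ± 0.34 with LPS (limma adjusted p = 0.0071), or 1.80 ± 0.28 without DMSO replicate 2 (adjusted p = 0.00046). Its second probe was too dim to be tested.

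The guanylate-binding proteins Gbp2 and Gbp3 act on compartments that hold microbes. Gbp2 was 4.95, 6.46, 3.76 and 4.43 in DMSO, 5.52, 4.18, 3.98 and 3.88 with cordycepin, 6.95, 5.87, 6.20 and 7.35 with LPS+DMSO, and 6.87, 6.70, 6.92 and 7.19 with LPS+cordycepin. Its probe was clearly brighter than background on 1 array each of DMSO and cordycepin, on 3 of LPS+DMSO and on all 4 of LPS+cordycepin. Gbp2 rose at least 2.31-fold with LPS (limma adjusted p = 0.030), or at least 2.96-fold without DMSO replicate 2 (adjusted p = 0.0018), and 14 of 37 alternative settings lost the call. Its LPS+DMSO mean includes an array that was not well above background, so these limits are approximate. By level, DMSO replicate 2 was the sole DMSO array within the LPS+DMSO range. Gbp3 was 8.05, 9.33, 7.25 and 6.56 in DMSO, 8.16, 7.33, 7.20 and 7.30 with cordycepin, 9.20, 9.03, 8.85 and 8.82 with LPS+DMSO, and 9.47, 9.26, 9.09 and 8.98 with LPS+cordycepin. DMSO replicate 2 lay above the LPS+DMSO arrays, whereas the other DMSO arrays lay below them. The change of Gbp3 was 1.18 ± 0.42 with all arrays (limma adjusted p = 0.074) and it was called at 1.69 ± 0.29 without DMSO replicate 2 (adjusted p = 0.0010) and with the replicate number as a block (1.18, adjusted p = 0.036), a fit in which 2.14% of all genes were called higher.

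Stat2, the interferon signal transducer, went the other way. Stat2 was 11.11, 11.77, 10.82 and 10.84 in DMSO, 10.87, 10.58, 10.56 and 10.51 with cordycepin, 10.05, 9.95, 9.60 and 9.84 with LPS+DMSO, and 9.85, 9.46, 9.45 and 9.34 with LPS+cordycepin. Both LPS groups lay below both groups without LPS on every array. Stat2 fell by 1.27 on the log2 scale with LPS (SE 0.19, limma adjusted p = 0.00017), and without DMSO replicate 2 it fell by 1.06 (SE 0.14, adjusted p = 0.00012). In cordycepin-treated cells it fell by 1.10 with LPS (SE 0.19, adjusted p = 0.0010).

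**Figure D1:**
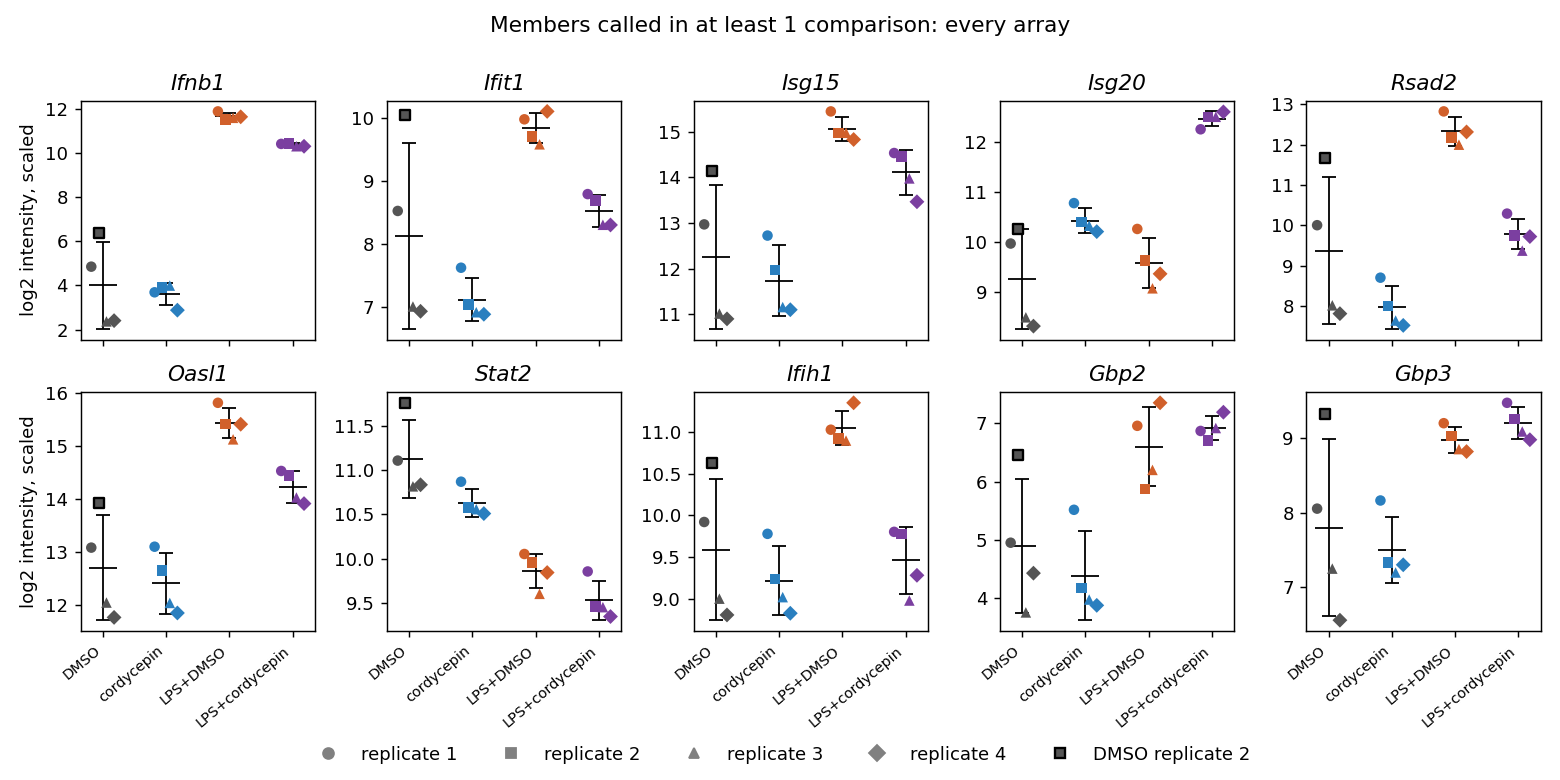
Scaled log2 intensity (vertical axes) of the 10 members called in at least 1 comparison on every array of the 4 conditions, with marker shape giving the replicate, bars giving the mean ± SD (n = 4) and a black outline marking DMSO replicate 2. Ifnb1, Ifit1, Isg15, Rsad2, Oasl1 and Ifih1 have their highest mean in LPS+DMSO and a lower one in LPS+cordycepin, Isg20 has its highest mean in LPS+cordycepin, and DMSO replicate 2 is the highest DMSO array in all 10.

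The remaining 27 members that were not called without DMSO replicate 2 had changes with LPS between -0.33 (Trim21) and 1.45 (Cmpk2), with 21 above 0 and 6 below. They include Mx2, the remaining oligoadenylate synthetase genes, the immunity-related GTPases Iigp1, Irgm1, Igtp and Ifi47, and the antigen presentation genes Tap1 (-0.11), Psmb8 (0.12) and Psmb9 (-0.02). With all arrays the 28 uncalled members ran from -0.59 (Xaf1) to 1.18 (Gbp3), with 20 below 0.

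DMSO replicate 2 had higher levels of most members than the other DMSO arrays, without any LPS. Against the median of the other 3 DMSO arrays, its member levels were higher by a median of 1.86 on the log2 scale, from 0.06 (Ifi47) to 3.64 (Rsad2), with Ifnb1 at least 1.89 and Gbp2 at least 1.96 higher, and 27 of 36 members were higher by at least 1. Of all genes tested, 558 (3.51%) were that much higher. Replicate 1, on the same slide, was itself higher than the median of the other DMSO arrays, by a member median of 1.04. Against replicate 1 alone, the differences of DMSO replicate 2 ran from -0.50 (Ifi47) to 1.65 (Rsad2), and fewer members were at least 1 higher. DMSO replicate 2 was the highest DMSO array for 34 of 36 members, the exceptions being Dhx58 and Ifi47, and the highest of all 16 arrays for 23. The list was described with this array already known to stand apart, so these values are a description without a test.

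The higher levels in this array were found for members not called with LPS as well as for those that were. Oasl2 was 11.12 there and 9.66, 7.67 and 7.63 on DMSO replicates 1, 3 and 4, and it stayed between 7.99 and 9.64 on the LPS+DMSO arrays. Ifi44, a further interferon-induced antiviral protein, was 12.57 there and 11.77, 9.63 and 9.06 on the others, with 9.41 to 11.24 in LPS+DMSO. For the genes outside the interferon lists that LPS raised in the fit without DMSO replicate 2, the median difference in this array was 0.15 over 331 genes. Of these 331, 54 were higher by at least 1, a larger share than the 3.51% of all genes. They were chosen for lower levels on the other DMSO arrays, which by itself favours positive differences in this comparison. Among 44 tested interferon-stimulated genes that are no members the median difference was 0.69, and 14 were higher by at least 1. The macrophage Fc receptor gene Fcgr1, itself known to respond to interferon, was at 13.18 on this array, the highest of all 16. Cd68, Adgre1, Csf1r, Itgam, Cd14 and Spi1 were at their lowest of the 16 there. The macrophage markers Lyz2 (14.05, lowest 13.60) and Mrc1 (5.76, lowest 5.64) were not.

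The members also differed between replicate numbers in the other conditions. Against the median of the other 3 arrays of its condition, replicate 1 was higher in all 4 conditions, by member medians of 1.04 (DMSO), 0.86 (cordycepin), 0.72 (LPS+DMSO) and 0.56 (LPS+cordycepin). By the same measure replicate 2 was higher by 1.86 in DMSO, but by 0.22 with cordycepin, 0.30 with LPS+DMSO and 0.26 with LPS+cordycepin. Replicates 3 and 4 were lower in every condition, with medians between -1.41 and -0.23. Averaged over the conditions, replicates 1 and 2 exceeded replicates 3 and 4 by a median of 0.82 over the members, with 13 of 36 at least 1 higher (36.1%), against -0.04 and 0.359% over all genes. Ifi44 (2.38), Mx2 (1.70) and Xaf1 (1.44) differed most, and Iigp1 (-0.23) was the sole member that was lower. These replicates also share a slide, so day and slide cannot be told apart.

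**Figure D2:**
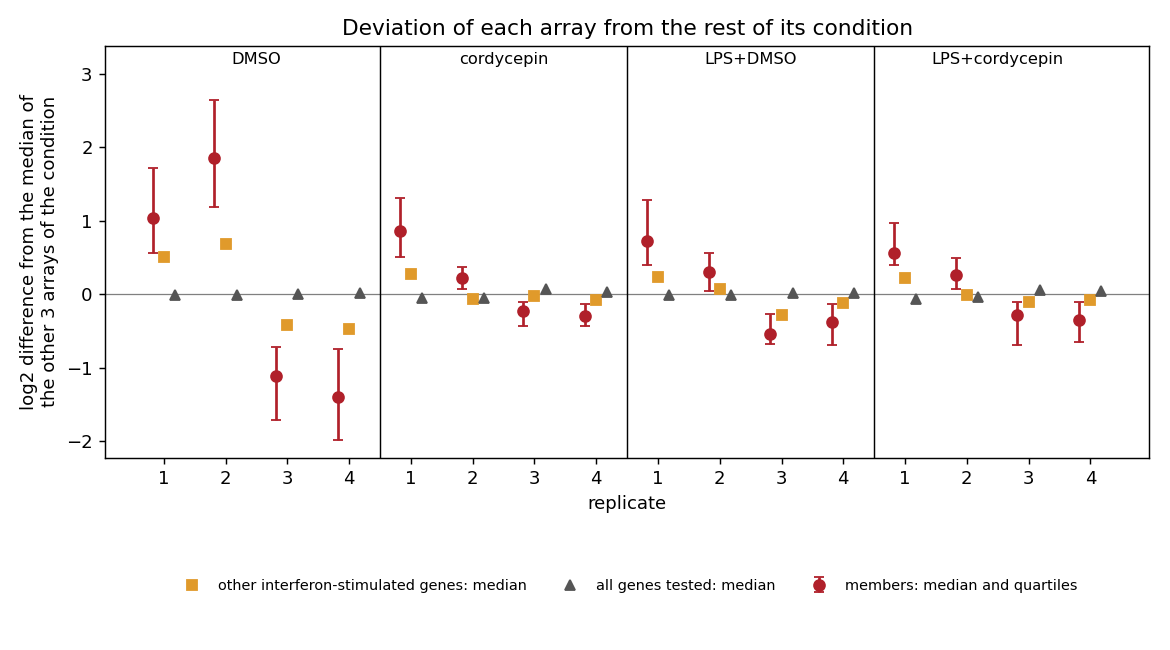
Log2 difference of each array (horizontal axis, replicates within conditions) from the median of the other 3 arrays of its condition, as the median and quartiles over the 36 members tested (red), the median over 44 other interferon-stimulated genes (orange) and the median over all 15875 genes (grey). DMSO replicate 2 has the highest member median (1.86) and replicate 1 is above 0 in all 4 conditions, while all genes stay near 0.

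**Figure D3:**
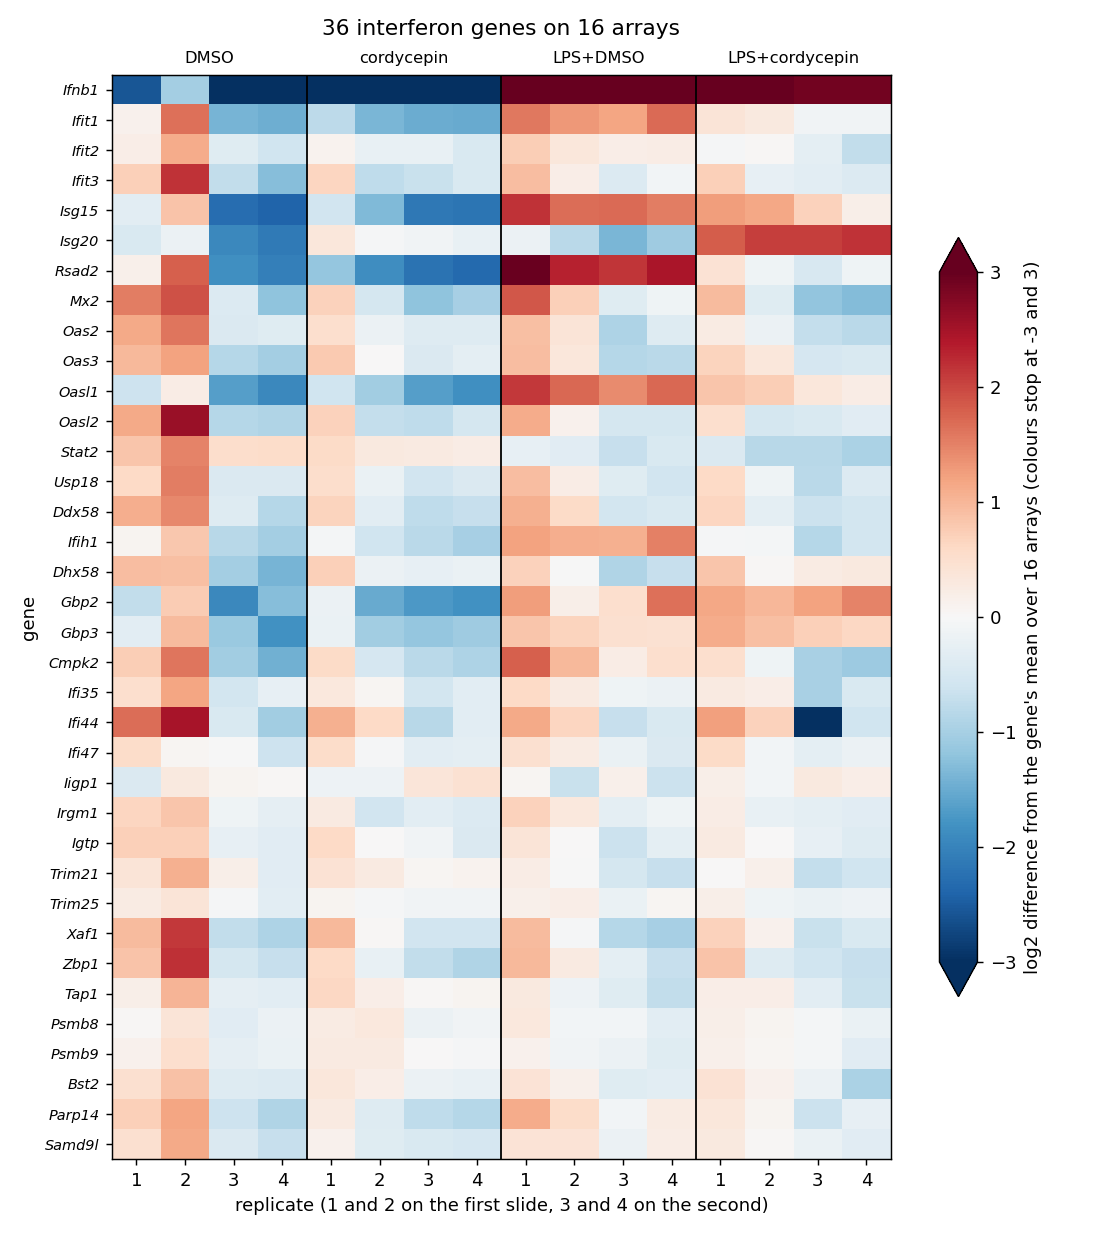
Log2 difference of each of the 36 members tested (rows) from its own mean over the 16 arrays, by condition and replicate (columns), in red where higher and blue where lower. The DMSO replicate 1 and 2 columns are red for most members, and the LPS-raised genes Ifnb1, Isg15, Rsad2 and Oasl1 are blue on DMSO replicates 3 and 4 and red on all LPS+DMSO arrays.

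Cordycepin lowered several of the LPS-raised members and raised Isg20. In LPS+cordycepin against LPS+DMSO, Rsad2, Ifih1 and Oasl1 fell, 3 of 36 members against 1.52% of all genes, and Isg20 rose, 1 of 36 against 5.93%. Without DMSO replicate 2, an array outside this comparison that enters it through the shared estimate of spread, Ifit1 and Ifnb1 also fell, making 5 of 36 against 1.58% of all genes, and Isg20 was again the one that rose (5.97%). The member median was -0.26, beside 0.03 over all genes, and 15 of 36 members were lower on all 4 days against 16.7% of all genes.

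Rsad2 changed by nearly the same amount on every day. The difference between LPS+cordycepin and LPS+DMSO was -2.53, -2.43, -2.62 and -2.59 on the 4 days. Rsad2 thus fell by 2.54 on the log2 scale, 5.83-fold, with an SE of 0.62 in the limma fit to 16 arrays (adjusted p = 0.0082) and of 0.41 without DMSO replicate 2 (adjusted p = 0.00032). Cmpk2, a mitochondrial nucleotide kinase gene with its probe at chr12:27164119-27164178, lies on the same chromosome as Rsad2 (chr12:27127859-27127918, both mm9). Cmpk2 differed by -1.29, -1.09, -1.18 and -1.59 on the 4 days, a mean of -1.29 ± 0.60 that was not called with all arrays (limma adjusted p = 0.18) but was called lower with the replicate number as a block (adjusted p = 0.016, with 1.57% of all genes called lower).

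Ifih1 differed by -1.22, -1.14, -1.91 and -2.06 on the 4 days and fell by 1.58 (SE 0.34, limma adjusted p = 0.0027). Oasl1 differed by -1.28, -0.96, -1.10 and -1.49 and fell by 1.21 (SE 0.39, limma adjusted p = 0.041), a call that 14 of 38 alternative settings lost. With cordycepin and LPS, Ifih1 was back within the range of the cells without LPS, while Oasl1 stayed at or above nearly all of them.

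Ifnb1 itself was lower with cordycepin on all 4 days, by -1.48, -1.08, -1.29 and -1.34. Its difference of -1.30 ± 0.65 was not called with all arrays (limma adjusted p = 0.21), and without DMSO replicate 2 its SE was 0.43 and it was called (adjusted p = 0.043). The LPS+DMSO and LPS+cordycepin arrays did not overlap for Ifnb1, with SDs of 0.16 and 0.07. The shared estimate of spread also takes in the DMSO arrays, mostly not well above background, where the SD was 1.97. Ifit1 differed by -1.19, -1.01, -1.28 and -1.80, a mean of -1.32 ± 0.50 (limma adjusted p = 0.083) that was called without DMSO replicate 2 (SE 0.30, adjusted p = 0.0045). Isg15 differed by -0.91, -0.51, -1 and -1.37, a mean of -0.95 ± 0.59 that was not called in either fit (limma adjusted p = 0.34 and 0.17).

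Gbp2 and Gbp3 were the LPS-raised members with a mean difference above 0. Gbp3 differed by 0.27, 0.23, 0.24 and 0.16 on the 4 days (mean 0.22 ± 0.42, limma adjusted p = 0.80), and Gbp2 by -0.09, 0.83, 0.72 and -0.16 (mean 0.32 ± 0.50, adjusted p = 0.75). A p of this size does not show that the levels were equal. The 8 members that LPS raised in either fit had a median difference of -1.25, and the other 28 had one of -0.23, but the LPS+DMSO arrays enter both the choice of the 8 and this difference.

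Isg20, a nuclease that degrades RNA, was 9.97, 10.26, 8.49 and 8.31 in DMSO, 10.78, 10.40, 10.32 and 10.21 with cordycepin, 10.26, 9.63, 9.07 and 9.36 with LPS+DMSO, and 12.26, 12.50, 12.51 and 12.60 with LPS+cordycepin. The LPS+cordycepin arrays stood above all others, and the LPS+DMSO arrays overlapped the DMSO arrays (0.32 ± 0.37, limma adjusted p = 0.68, and 0.66 ± 0.34 without DMSO replicate 2, adjusted p = 0.25). In LPS-treated cells Isg20 was higher with cordycepin by 2.89 ± 0.37 (7.39-fold, limma adjusted p = 2.9e-05), by 2.00, 2.87, 3.43 and 3.24 on the 4 days. Its second probe at chr7:86064960-86065019 (mm9) gave 2.62, beside the brighter probe at chr7:86065136-86065195.

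**Figure D4:**
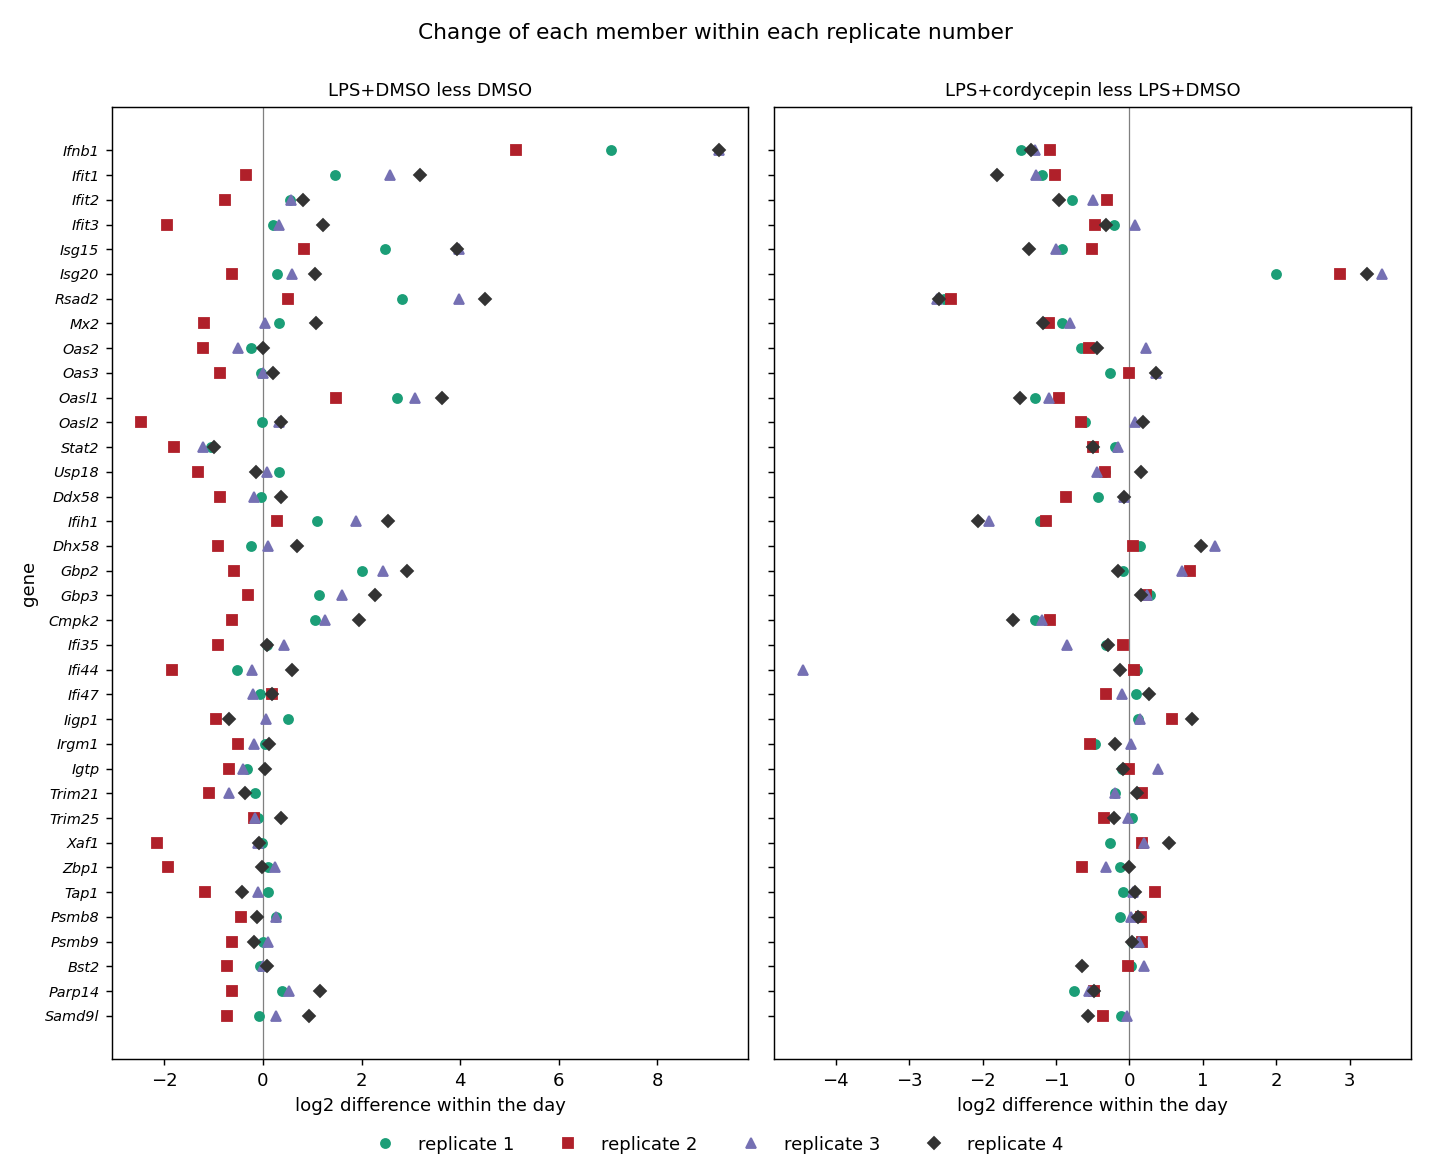
Difference of LPS+DMSO from DMSO (left) and of LPS+cordycepin from LPS+DMSO (right) for each of the 36 members tested within each replicate number, on the log2 scale. On the left the replicate 2 squares lie to the left of the other days for nearly all members, and on the right Rsad2 lies between -2.62 and -2.43 on the 4 days, while Isg20 spreads from 2.00 to 3.43 and Ifi44 has replicate 3 at -4.45.

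Among the other members the LPS+cordycepin differences from LPS+DMSO ran, leaving out those called, from -1.29 (Cmpk2) to 0.58 (Dhx58) without DMSO replicate 2. Ifit2, Mx2, Ddx58, Ifi35, Zbp1, Parp14, Samd9l and Stat2 were lower on all 4 days and Dhx58, Iigp1 and Psmb9 higher on all 4, none of them called. Ifi44 was lower by -1.10, but this came from replicate 3 (-4.45), where its probe was not well above background and read 4.97 against 9.51 to 11.34 on the other LPS+cordycepin arrays. Second probes differed from the brighter one in size for Xaf1 (1.90 against 0.16) and in direction for Ddx58 (0.70 against -0.36). The second Xaf1 probe was well above background on 1 LPS+DMSO array and on all 4 LPS+cordycepin arrays, so its 1.90 is approximate.

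Without LPS, 1 member passed the test with cordycepin. Isg20 rose by 1.17 ± 0.37 in cordycepin against DMSO (limma adjusted p = 0.043), 1 of 36 members against 4.49% of all genes, and by 1.5 ± 0.34 without DMSO replicate 2 (adjusted p = 0.0065, 4.57% of all genes). It was higher on all 4 days, by 0.81, 0.14, 1.83 and 1.89. No member fell, against 1.06% of all genes with the 16 arrays and 0.926% without DMSO replicate 2, although Rsad2 and Stat2 were below 0.05 before adjustment in limma with all arrays (unadjusted p = 0.040 and 0.016). With all arrays 30 of the 35 uncalled members were below 0, from -1.40 (Rsad2) to 0.17 (Dhx58), but without DMSO replicate 2 they fell on both sides, 16 below and 19 above, from -0.64 (Rsad2) to 0.51 (Dhx58). The member median moved from -0.38 to 0.03 with that array left out, beside 0.04 over all genes in both fits. Of the 36 members, 6 were lower with cordycepin on all 4 days, beside 16.9% of all genes. Among these, Rsad2 differed by -1.30, -3.65, -0.38 and -0.29 and Ifit1 by -0.90, -3.01, -0.09 and -0.05, and neither was called.

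**Figure D5:**
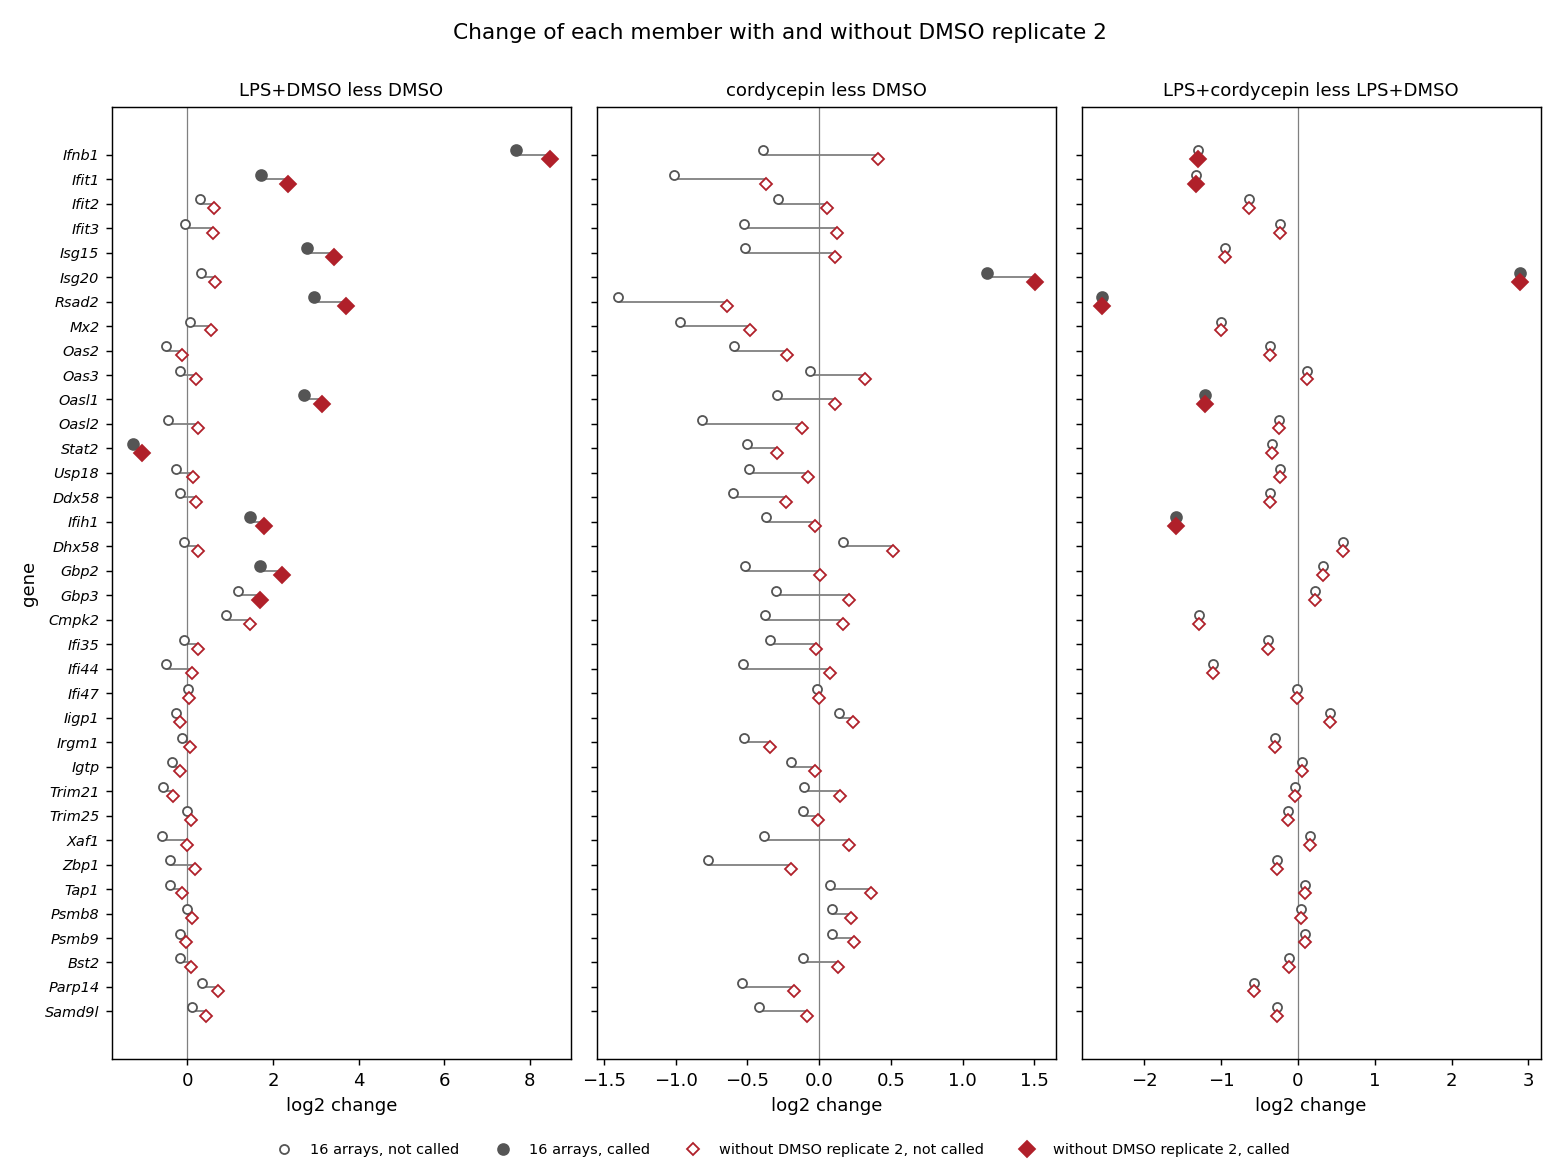
Log2 change of each of the 36 members tested in 3 comparisons, from the fit to 16 arrays (circles) and without DMSO replicate 2 (diamonds), filled where called, with Ifnb1 and Gbp2 at their measured values rather than their limits. Leaving out that array shifts the LPS changes to the right and moves the cordycepin changes without LPS from mostly below 0 to both sides of it, while the changes of cordycepin in LPS-treated cells keep their size.

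LPS still raised members in cells that had received cordycepin. In LPS+cordycepin against cordycepin 6 of 36 rose (Ifnb1, Isg15, Isg20, Oasl1, Gbp2 and Gbp3), against 1.69% of all genes, and Stat2 fell, against 1.22%. Without DMSO replicate 2 Ifit1 and Rsad2 also rose, making 8 of 36 against 1.8% of all genes, and Stat2 again fell (1.26%). Since Ifnb1 was not well above background on any cordycepin array, its rise is again a limit, of at least 38.5-fold (limma adjusted p = 4.3e-06). Isg15 rose by 2.37 ± 0.59 (limma adjusted p = 0.019), Oasl1 by 1.82 ± 0.39 (adjusted p = 0.0073) and Isg20 by 2.04 ± 0.37 (adjusted p = 0.0020). Gbp2, well above background on 1 of the 4 cordycepin arrays, rose at least 3.39-fold (limma adjusted p = 0.0036) and Gbp3 by 1.70 ± 0.42 (adjusted p = 0.018). Rsad2 differed by 1.81 ± 0.62 (limma adjusted p = 0.10), and it was called with the replicate number as a block (adjusted p = 0.045, with 1.74% of all genes called higher). Ifih1 differed by 0.24 ± 0.34 (limma adjusted p = 0.81) and was not called, with day values of 0.02, 0.54, -0.04 and 0.45.

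The difference between the 2 LPS responses was tested as an interaction. No member passed in limma with all arrays, against 0.195% of all genes higher and 0.17% lower, nor without DMSO replicate 2 (0.214% and 0.22%), while Isg20 (unadjusted p = 0.0052) and Ifih1 (unadjusted p = 0.022) were below 0.05 before adjustment with all arrays. With the replicate number as a block and DMSO replicate 2 left out, a fit chosen after the data were seen, 4 members had a smaller LPS response with cordycepin, against 0.428% of all genes, and none a larger one (0.328%). In that fit the response of Rsad2 was smaller by -1.92 ± 0.33 (limma adjusted p = 0.016), of Ifih1 by -1.53 ± 0.29 (adjusted p = 0.027), of Cmpk2 by -1.42 ± 0.21 (adjusted p = 0.0070) and of Oasl1 by -1.27 ± 0.22 (adjusted p = 0.016). Whether the LPS responses of these members differ with cordycepin therefore rests on how DMSO replicate 2 and the days are treated.

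Both slides showed the cordycepin differences, and slide 1 showed smaller LPS changes than slide 2, on which the DMSO levels of the members were lower. With LPS, Rsad2 changed by 1.67 on slide 1 and 4.24 on slide 2, Isg15 by 1.66 and 3.95, Ifit1 by 0.56 and 2.88, and Ifih1 by 0.70 and 2.21. Slide 1 holds DMSO replicate 2, and its changes were smaller on day 2 than on day 1. On days 1 and 2 Rsad2 changed by 2.82 and 0.51, Isg15 by 2.48 and 0.83, Ifit1 by 1.46 and -0.34, and Ifih1 by 1.10 and 0.29. For these genes day 1 was still below days 3 and 4. In LPS+cordycepin against LPS+DMSO, Rsad2 differed by -2.48 and -2.61, Ifih1 by -1.18 and -1.99, Oasl1 by -1.12 and -1.29, and Isg20 by 2.43 and 3.34. Cordycepin without LPS gave 0.48 and 1.86 for Isg20, and on slide 1 alone the call in that comparison was Rsad2, lower (limma adjusted p = 0.043), in place of Isg20. On that slide Rsad2 was 10.01 and, on DMSO replicate 2, 11.66 in DMSO, and 8.71 and 8.01 with cordycepin. Over both slides without that array it changed by -0.64 and was not called. With the slide as a block, limma also called Gbp3 with LPS (adjusted p = 0.021), Ifit1 and Cmpk2 with cordycepin in LPS-treated cells (adjusted p = 0.032 and 0.011), and Ifit1 and Rsad2 with LPS after cordycepin (adjusted p = 0.043 and 0.025).

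Further genes of the pathway gave a frame for the members. Of 27 tested genes of the interferon pathway that are no members, 5 were called higher with LPS and none was called lower, against 2.09% and 2.49% of all genes. Those higher were the inhibitors Tnfaip3 (5.24 ± 0.13) and Socs3 (2.94 ± 0.23), the kinase Ikbke (1.5 ± 0.14), the adaptor Ticam1 (1.49 ± 0.11) and the LPS co-receptor Cd14 (1.12 ± 0.11). The sensing genes Tlr4 (-0.75 ± 0.10, limma adjusted p = 5.0e-05) and Mavs (-0.45 ± 0.12, adjusted p = 0.018) were lower by less than 2-fold. In limma 10 of the 27 had an unadjusted p under 0.05 in either direction. Ikbke and Ticam1, which stand upstream of Ifnb1, fell by 1.07 (SE 0.14, limma adjusted p = 2.5e-05) and by 1.13 (SE 0.11, adjusted p = 2.0e-06) in LPS+cordycepin against LPS+DMSO. Ticam1 was already lower with cordycepin without LPS (-0.83 ± 0.11, limma adjusted p = 6.6e-05). It rose by 1.18 ± 0.11 with LPS after cordycepin, and its interaction of -0.31 was not called (limma adjusted p = 0.72). The LPS responses of Ikbke and Tnfaip3 were smaller after cordycepin, by -1.16 (limma adjusted p = 0.011) and -1.20 (adjusted p = 0.010). Irf3 was 13.00 ± 0.25 (SD, n = 4) in DMSO and 13.03 ± 0.20 in LPS+DMSO and was not called. Of the 44 other interferon-stimulated genes tested, 3 rose with LPS and none fell in limma, against the same 2.09% and 2.49% of all genes. Cxcl10 rose by 7.50 ± 0.42, Slfn2 by 2.39 ± 0.18 and Ccl5 by 1.75 ± 0.49, or 8.02, 2.52 and 2.45 without DMSO replicate 2. In limma 10 of the 44 had an unadjusted p under 0.05, and the median change over the 44 was -0.11, or 0.02 without that array. With cordycepin and LPS, Slfn2 fell by 1.10 (SE 0.18) and Ifitm1 rose by 1.79 (SE 0.30) against LPS+DMSO. These 2 were the ones called with the 16 arrays, against 1.52% of all genes lower and 5.93% higher, with a median of -0.03 over the 44. Without DMSO replicate 2 Ccl5 also fell there, by 1.42 (limma adjusted p = 0.00016).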

How the data were processed

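RNA of 16 RAW 264.7 cultures was hybridised to Agilent 1-colour mouse arrays. Each deposited scanner file holds a background-subtracted intensity per spot, from Agilent Feature Extraction 10.10.1.1 per the labels, with no scaling between arrays. A further table of log2 values (3.73 to 18.73, 23730 probes), which the authors had normalized by a method not given in the sources used here, was an alternative. The submitters' notes also name limma without a version.

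Outlier spots were left out, intensities were log2-transformed, and arrays were scaled to a common 75th percentile, taken over 18064 probes that exceeded background on every array. A probe was used if it exceeded background on each array of 1 or more conditions (21597 probes), and a gene took its brightest probe. Probes were named through RefSeq by accession (27737), symbol (3349) or synonym (313), and 24282 kept the file's name. Probe positions are those of the files (mm9) and were not combined with GRCm38.p6.

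The 4 condition means were fitted with limma 3.58.1 in R 4.3.3 over 15875 genes with 1 estimate of spread and Benjamini-Hochberg adjustment, after tests on simulated data. All members may be named, and those called in any comparison are given on every array. Members and lists were chosen with earlier results of these data known. Python 3.11.15 with pandas 2.3.3 and matplotlib 3.10.9 drew the plots. The number of arrays limits the precision.

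By the series' design text, replicates were collected on separate days, which pairs arrays of a number. The mean correlation of residuals was 0.20 (-0.06 to 0.44) for arrays that share a number, 0.18 for other arrays of a slide and -0.19 across slides. Alternatives were other scalings, background corrections, filters, probe rules, blocks, single slides, thresholds, the methods' t-test and leaving out each array or replicate number.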

Additional observations from a re-analysis of the deposited data

Results flagged for a closer look

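Of 144 groups of 4 arrays examined over the members tested, 4 had 1 array set apart from the other 3 by more than the 95% limit of Dixon's test, where chance gives 7.2 such groups (5% of them). Dhx58 was 9.38 on cordycepin replicate 1, with the nearest of the other cordycepin arrays at 8.48. Oasl2 was 9.22 on the same array, with the nearest at 8. Gbp3 was 8.16 there, with the nearest at 7.33. Ifit3 was 8.23 on LPS+cordycepin replicate 1, with the nearest at 7.26. All 4 are the highest value of their group and all are replicate 1, the day on which the members were high in every condition.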

How the results depend on the processing

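The number of members called moved with the slide, the test and the arrays left out. For LPS+DMSO against DMSO it was 8, with 3 on slide 1 alone and 3 by the methods' t-test after Benjamini-Hochberg, and leaving out arrays or replicate numbers in turn gave 4 (without replicate 3 or 4) to 9 (without DMSO replicate 2 or replicate 2). For LPS+cordycepin against LPS+DMSO it was 4, with 7 when scaled to spiked-in control probes, 9 on slide 2 alone, 7 by the methods' t-test at unadjusted p, 7 with the replicate block without DMSO replicate 2, and 3 to 6 with arrays left out (6 without DMSO replicate 2). For cordycepin against DMSO the single call, Isg20, was lost (0 calls) with the 75th percentile over all probes, normexp background correction, no filter on dim probes, the mean of a gene's probes, only the groups compared, either form of the methods' t-test and an adjusted p under 0.01. Leaving out arrays gave 0 or 1 there, 0 in 14 of 20 settings. These include each single cordycepin or LPS+cordycepin array, DMSO replicate 3, LPS+DMSO replicates 2 and 4, and replicate numbers 1, 3 and 4. For LPS+cordycepin against cordycepin it was 7, with 4 on slide 1 alone and 4 (without replicate 3) to 9 (without DMSO replicate 2) with arrays left out. For the interaction it was 0, with 4 on slide 2 alone (1 higher, 3 lower), 4 with the replicate block without DMSO replicate 2, and 0 in every setting that left out arrays. Among single calls, Gbp2 was lost in 14 of 37 and Ifit1 in 13 of 38 settings with LPS, Oasl1 in 14 of 38 with cordycepin and LPS, and Isg20 in 23 of 38 with cordycepin alone. The block without DMSO replicate 2 was chosen after the data were seen. The replicate block with all arrays gave 9, 5, 1, 8 and 0 calls in the order above, and changed the calls of Gbp3, Cmpk2 and Rsad2 alone. The difference of DMSO replicate 2 from the other DMSO arrays was 1.49 to 1.90 under 7 alternatives, lowest with spiked-in scaling. That scaling moved the median of all genes to -0.14, -0.12, 0.10, -0.36 and -0.21 in the 5 comparisons. The methods' t-test was not run for the interaction. No change of a member called in a comparison turned its direction under any setting. Ifnb1 and Gbp2 were near background without LPS, which limits their resting levels.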
